A study of Mus musculus with 20 samples.

Results

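The genes described here are 10 of the 24411 listed for these kidneys: the chloride channels *Cftr*, *Ano1* and *Ano6*, the cotransporter *Slc12a2*, the potassium channel *Kcnn4*, and the chloride intracellular channel genes *Clic1*, *Clic3*, *Clic4*, *Clic5* and *Clic6*. *Cftr*, *Ano1* and *Slc12a2* were taken for their role in cyst fluid secretion, *Ano6*, *Kcnn4* and the other *Clic* genes were listed beside them, and *Clic6* was chosen by its measured rise in the male mutants. For that reason the values of *Clic6* are a description with no test in every comparison that holds male mice, and it is left out of the counts given there. The other members, and the lists used below, were also chosen with earlier results of these data known. How many of them were called therefore describes these genes and is not independent support. Kidney RNA of 20 C57BL/6 mice was sequenced at P125. The 4 groups, each of 5 mice, were male controls (MC1 to MC5), male mutants (MM1 to MM5), female controls (FC1 to FC5) and female mutants (FM1 to FM5). All 20 mice carried floxed *Pkd2* alleles (*Pkd2* fl/fl) and all received doxycycline (DOX) at 50 mg per kg from P27 to P29. The mutants carried both *Pax8* rtTA and *TetO* Cre, so that DOX deleted *Pkd2* wherever the *Pax8* promoter is active, which is along the renal tubule, and the controls lacked one of these transgenes. Cells outside the tubule keep *Pkd2*, and the samples are whole kidney, so a lower level could reflect fewer cells of a type or less RNA per cell, and these cannot be told apart. There were 3 litters (A, B and C), and mice that share a number are not paired. FC1 was the only female control and FM1 the only female mutant of litter A. MC4 was the only male control of litter B, and litter C held 1 mouse a group.

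In a secreting epithelial cell, chloride enters across the basolateral membrane through the sodium-potassium-chloride cotransporter NKCC1, the product of *Slc12a2*, and leaves across the apical membrane through channels. CFTR is the channel opened by cyclic AMP and protein kinase A, and TMEM16A, the product of *Ano1*, is one opened by calcium. Potassium channels such as KCa3.1, the product of *Kcnn4*, keep the cell negative and so sustain the exit of chloride, and water follows the salt into the lumen, which is how kidney cysts are known to fill. The CLIC proteins are small, glutathione transferase-like proteins that exist in soluble and membrane forms, and they are better known for roles in vesicle traffic, tubulogenesis and the membrane cytoskeleton than as plasma membrane channels.

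The promoter of *Slc12a2* is not reported here. Of the other members, 8 were found among the RefSeq promoters of GRCm38.p6, which cover 250 bases before and 50 after a gene's start, and *Clic6* was not. Those of *Cftr* and *Kcnn4* are shown because these genes rose together in mutants and their promoters were unlike in base composition. The 250 bases before the start of *Cftr* (chr6:18170437-18170686, + strand) and of *Kcnn4* (chr7:24370013-24370262, + strand) are given 5′ to 3′, with each CpG in capitals.
*Cftr*: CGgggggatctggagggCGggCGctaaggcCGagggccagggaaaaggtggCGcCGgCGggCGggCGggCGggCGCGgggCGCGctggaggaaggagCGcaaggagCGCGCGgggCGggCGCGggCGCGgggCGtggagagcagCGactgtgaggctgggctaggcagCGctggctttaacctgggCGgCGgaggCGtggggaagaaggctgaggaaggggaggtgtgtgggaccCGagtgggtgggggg
*Kcnn4*: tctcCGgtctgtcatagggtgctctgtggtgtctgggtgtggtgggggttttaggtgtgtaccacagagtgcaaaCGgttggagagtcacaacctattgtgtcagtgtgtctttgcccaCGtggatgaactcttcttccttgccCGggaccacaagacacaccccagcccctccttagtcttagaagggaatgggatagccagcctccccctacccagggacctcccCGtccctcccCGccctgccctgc
Over the whole window of 300 bases, the *Cftr* promoter held 31 CpG and 71.3% G and C, and the *Kcnn4* promoter held 6 CpG and 59.7%. The median of all RefSeq promoters was 7 CpG and 52.7%. *Ano6* held 29 CpG, *Clic4* 28, *Ano1* 18, *Clic5* 16, *Clic1* 14 and *Clic3* 5. The windows of *Ano1* (chr7:144738524-144738823) and *Clic1* (chr17:35049993-35050292) lie inside the spans given for these genes below. Their RefSeq starts are therefore not the outer ends of those spans. The full cyclic AMP response element, TGACGTCA, was searched on both strands and was in none of the 8 windows, and 1.8% of 32851 promoters held it. The shorter TGACG, which lies inside the full element, was in the *Ano6* window only, and 20.8% of all promoters held it.

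The library with the fewest counts held 11307741 and the largest 19324073 (median 15813304.5). Levels are given as CPM, counts scaled to libraries of equal size by edgeR's TMM method. Where groups are said not to overlap, this only describes the member, since the share of all genes without overlap was not computed. *Pkd2* was 292 ± 31.3 CPM (SD, n = 5) in male controls and 119.5 ± 9.85 in male mutants, and 257 ± 48.7 in female controls and 145 ± 33.7 in female mutants. *Ddx3y*, a Y-linked gene, was listed at 0 in each female, and *Xist*, the RNA of the inactive X chromosome, was at most 0.440 CPM in each male and at least 461 in each female. One library, that of female mutant FM4, stood apart: genes with any count numbered 14850 there and at least 16776 in each of the other 19, and genes with a single count numbered 76 there and at least 708 elsewhere. Of the kidney cells, defining markers of the proximal tubule, thick ascending limb, collecting duct, podocyte and endothelium were present in all groups.

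Per kilobase of exon, *Clic1* had the highest mean level of the 10 genes in each group, at 70.4 CPM per kb over the 20 mice, and it was followed in each group by *Clic4* at 44.3, *Clic5* at 15.5 and *Ano6* at 11.2. The next places changed with sex. *Slc12a2* lay above *Clic3* in males, at 7.03 against 5.29 CPM per kb in controls and 8.53 against 3.77 in mutants, and below it in females, at 4.87 against 7.65 in controls and 5.93 against 6.48 in mutants, the last pair differing by less than the SD of *Clic3*. *Clic6* had 2.21 and 1.79 CPM per kb in female controls and mutants, above *Cftr* at 0.911 and 1.47 and *Ano1* at 1.21 and 1.38. In males *Clic6* had 0.129 CPM per kb in controls, level with *Kcnn4* at 0.125, and 0.535 in mutants, below *Cftr* at 1.36 and 2.15 and *Ano1* at 1.03 and 1.02. In whole kidney RNA, *Clic1*, *Clic4* and the scramblase *Ano6* were thus several times above the chloride channels *Cftr* and *Ano1*.

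**Figure D1:**
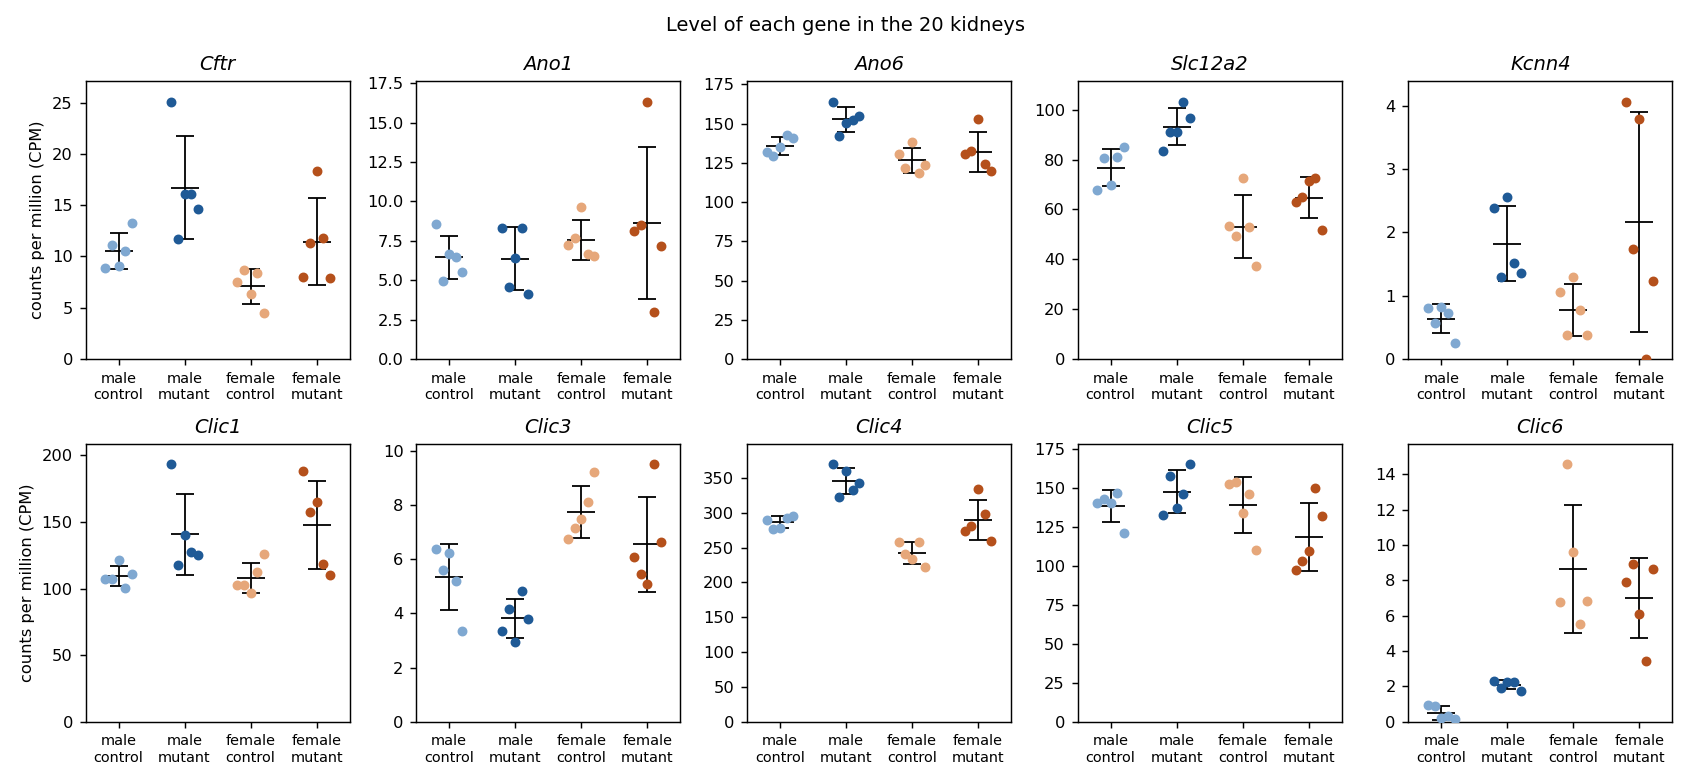
Level of each of the 10 genes in CPM (vertical axis, from 0), by group (horizontal axis). Each point is 1 mouse and the bars are the mean ± SD of 5 mice. All 5 male mutants lie above all 5 male controls for *Kcnn4*, *Clic4* and *Clic6*, the last of which was chosen for that rise. *Clic6* is highest in the female groups.

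Over all 20 mice, with each combination of sex and litter as a block, 5 of the 9 members other than *Clic6* rose in mutants and none fell. These were *Cftr*, *Kcnn4*, *Slc12a2*, *Clic1* and *Clic4*, that is, the cyclic AMP-opened apical channel, the basolateral cotransporter and potassium channel, and a pair of CLIC genes, whereas *Ano1*, *Ano6*, *Clic3* and *Clic5* did not pass the test. Genes were called at a Benjamini-Hochberg adjusted p under 0.01 in edgeR's quasi-likelihood test, over all genes tested. Of the 14191 genes tested, 15.9% were called, 10% higher and 5.86% lower. The median log2 fold change of the 9 members, chosen with earlier results of these data known, was 0.27, against −0.012 over all genes tested. Without FM4, 6 of the 9 were called, with *Clic3* the addition, as the only one lower. The count fell to 2 without FC2 or without MC4, and it was 3 without MC1, MC3, MM1, FC1, FC4, FC5, FM1, FM3 or FM5. Calls over all genes moved as well, from 2252 of 14191 with all mice to 2994 of 14274 without FM4. They were 1831 without FC2, 1656 without MC4, and 1670 to 2286 in the fits that called 3 members. *Cftr* and *Clic4* were called whichever mouse was left out.

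*Cftr* (chr6:18170687-18322768, + strand, GRCm38) encodes the cyclic AMP-regulated chloride channel of the apical membrane. In male controls MC1 to MC5 its level was 8.88, 11.1, 9.07, 10.5 and 13.2 CPM. Male mutants MM1 to MM5 had 25.1, 11.7, 16.1, 16.1 and 14.6 CPM. The groups overlapped in one mouse, MM2, which lay below control MC5, and MM1, the mutant with the largest kidney for its body weight, was the highest. Female controls FC1 to FC5 had 7.48, 8.67, 6.36, 8.41 and 4.47 CPM. Female mutants FM1 to FM5 had 7.98, 11.3, 18.3, 11.8 and 7.87 CPM. Here FM1 and FM5 lay within the range of the controls and FM3 was the highest. *Cftr* rose by 0.69 (SE 0.15) on the log2 scale over all mice, a fold of 1.61 (edgeR, adjusted p = 0.00186), and with each mouse left out in turn the adjusted p lay between 0.000744 and 0.00695. Within males the log2 fold change was 0.67 (SE 0.20) (edgeR, adjusted p = 0.0386). Without MM1 it was 0.34, and with each male left out in turn the adjusted p lay between 0.00870, without MM2, and 0.107, without MC4. Within females it was 0.72 (SE 0.21) (adjusted p = 0.0725). By litter (A, B and C), mutants minus controls in mean log2 CPM was 0.82, 0.60 and 0.14 in males and 0.093, 0.79 and 0.80 in females, so that it was above 0 in each. Females of litter A and both sexes of litter C were 1 mouse against 1, and males of litter B had 1 control. Of its exon length, 1.66% overlaps the antisense gene *Gm15592*. The strand setting of the counting is not given in the sources used here.

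*Ano1* (chr7:144588549-144751974, − strand) encodes TMEM16A, the calcium-activated chloride channel. Its level was 8.58, 4.98, 6.67, 6.49 and 5.49 CPM in male controls MC1 to MC5. The level in male mutants MM1 to MM5 was 8.33, 4.59, 6.42, 8.32 and 4.15 CPM. The ranges of male mutants and male controls overlapped. In the females, the controls FC1 to FC5 had 7.21, 7.69, 9.66, 6.68 and 6.51 CPM. The mutants FM1 to FM5 had 8.13, 8.51, 16.3, 2.997 and 7.16 CPM. The female mutants held both extremes of all 20 mice, FM3 at the top and FM4 at the bottom. The log2 fold change over all mice was 0.090 (SE 0.22) (edgeR, adjusted p = 0.801), and it was −0.12 without FM3 and 0.20 without FM4.

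*Ano6* (chr15:95790843-95974751, + strand) encodes TMEM16F, a calcium-activated phospholipid scramblase that also conducts ions. In male controls MC1 to MC5 its level was 132, 129.6, 135, 142 and 141 CPM, and in male mutants MM1 to MM5 it was 164, 142, 150.3, 152 and 155. All male mutants but MM2 lay above the highest male control. The level in female controls FC1 to FC5 was 131, 122, 138, 118 and 123 CPM, and in female mutants FM1 to FM5 it was 130.5, 133, 153, 124 and 119.9, with broad overlap. The log2 fold change over all mice was 0.12 (SE 0.054), a difference that did not pass the test (edgeR, adjusted p = 0.122), and it was 0.078 without FM3. Of its exon length, 1.74% overlaps the antisense gene *A130051J06Rik* and 0.99% the transcript *Gm49172*, which also lies on the other strand.

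*Slc12a2* encodes NKCC1, the cotransporter that loads the secreting cell with chloride from the basolateral side. Its level in male controls MC1 to MC5 was 67.8, 80.5, 70.0, 80.9 and 85.0 CPM. In male mutants MM1 to MM5 it was 83.6, 91.0, 91.1, 103 and 96.9 CPM. All but MM1 exceeded the highest control, MC5. In female controls FC1 to FC5 the level was 53.3, 49.4, 72.8, 53.0 and 37.2 CPM, lower than in males save for FC3. The level in female mutants FM1 to FM5 was 63.1, 64.8, 71.4, 72.8 and 51.9 CPM. The female groups overlapped, since FC3 lay beside the highest mutants and FM5 lay below FC1, FC3 and FC4. *Slc12a2* rose by 0.28 (SE 0.068) on the log2 scale over all mice, a fold of 1.21 (edgeR, adjusted p = 0.00479). The call was lost, at adjusted p from 0.0102 to 0.0127, without any one of MC1, MC3, MC4, MM2, FC2, FC4, FC5, FM3 or FM5, and it was lost without the litter term (adjusted p = 0.0185). By litter (A, B and C), mutants minus controls in mean log2 CPM was 0.27, 0.26 and 0.19 in males and 0.24, 0.27 and 0.48 in females. Its log2 fold change was 0.24 (SE 0.070) in males (edgeR, adjusted p = 0.0337) and 0.33 (SE 0.12) in females (adjusted p = 0.140).

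*Kcnn4* (chr7:24370263-24386690, + strand) encodes KCa3.1, the calcium-activated potassium channel of intermediate conductance. It showed the largest rise among the tested members and the lowest counts. Its level was 0.807, 0.575, 0.825, 0.730 and 0.258 CPM in male controls MC1 to MC5, from 4 to 11 counts a library. Male mutants MM1 to MM5 had 2.38, 1.30, 2.56, 1.52 and 1.36 CPM, from 19 to 42 counts. The male groups did not overlap. Female controls FC1 to FC5 had 1.06, 0.382, 1.30, 0.775 and 0.379 CPM. In female mutants FM1 to FM5 it was 4.07, 1.74, 3.79, 0 and 1.23 CPM. Mutants FM1, FM2 and FM3 lay above all female controls, FM5 lay within their range, and FM4 had no count, where 3 counts would be 0.257 CPM. The rise over all mice was 1.51 (SE 0.40) on the log2 scale, a fold of 2.84 (edgeR, adjusted p = 0.00888). Without FM4 it was 1.68 with adjusted p = 5.2e-05. The call held without FC3, FM4 or MM2, and without any one of the other 17 mice the adjusted p lay between 0.0110 and 0.0281. Within males the log2 fold change was 1.53 (SE 0.32) (edgeR, adjusted p = 0.00716), and within females 1.50 (SE 0.71) (adjusted p = 0.268). The female value was 1.84 without FM4 (edgeR, adjusted p = 0.0113) and 0.95 without FM3 (adjusted p = 0.559). The male call was lost without MC1, MC2, MC3, MC4, MC5, MM1, MM3 or MM5, at adjusted p from 0.0160 to 0.0346. By litter (A, B and C), mutants minus controls in mean log2 CPM was 1.15, 1.29 and 1.95 in males and 1.82, 0.17 and 1.43 in females, where FM4 is in litter B.

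*Clic1* (chr17:35049966-35058749, + strand) and *Clic4* (chr4:135213969-135272814, − strand) are the broadly expressed CLIC genes. *Clic1* was 107, 108, 121, 101 and 111 CPM in male controls MC1 to MC5. The level in male mutants MM1 to MM5 was 193, 118, 139.9, 127 and 126 CPM. MM1 stood well above the others, and MM2 lay below control MC3. The level in female controls FC1 to FC5 was 103, 103, 96.6, 112 and 126 CPM. Female mutants FM1 to FM5 had 188, 158, 165, 119 and 109.9 CPM. Mutants FM1, FM2 and FM3 lay above all female controls and FM4 and FM5 did not. *Clic1* rose by 0.42 (SE 0.10) on the log2 scale over all mice, a fold of 1.34 (edgeR, adjusted p = 0.00450). The call was lost without MM1, MC4, FC1, FC2, FC3 or FM1, at adjusted p from 0.0102 to 0.0215. Within males the log2 fold change was 0.39 (SE 0.12) (edgeR, adjusted p = 0.0438). Without MM1 it was 0.20, and with each male left out in turn the adjusted p lay between 0.00514, without MM2, and 0.140, without MC4. Within females the log2 fold change was 0.47 (SE 0.16) (edgeR, adjusted p = 0.116). By litter (A, B and C), mutants minus controls in mean log2 CPM was 0.43, 0.41 and 0.18 in males and 0.87, 0.49 and −0.19 in females, which was below 0 for the single pair of females of litter C.

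*Clic4* had, relative to its mean, the smallest spread between mice of the 5 genes that rose, in each of the 4 groups. Its level was 290.1, 276, 279, 293 and 295 CPM in male controls MC1 to MC5. In male mutants MM1 to MM5 it was 369.7, 322, 359.8, 333 and 343 CPM. The male groups did not overlap. In female controls FC1 to FC5 it was 258, 241, 234, 258 and 222 CPM. The level in female mutants FM1 to FM5 was 274, 281, 335, 298 and 259 CPM. The female groups did not overlap either, although FM5 exceeded FC1 by less than 1 CPM. *Clic4* rose by 0.27 (SE 0.053) on the log2 scale over all mice, a fold of 1.20 (edgeR, adjusted p = 0.00108), and with each mouse left out in turn the adjusted p lay between 0.00109 and 0.00501. Within males its log2 fold change was 0.26 (SE 0.064) (edgeR, adjusted p = 0.0166), and within females 0.29 (SE 0.10) (adjusted p = 0.127). By litter (A, B and C), mutants minus controls in mean log2 CPM was 0.29, 0.24 and 0.22 in males and 0.086, 0.32 and 0.22 in females.

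*Clic3* (chr2:25456838-25458776, + strand) and *Clic5* (chr17:44188584-44280172, + strand), the latter known for its place in podocyte foot processes and actin-based protrusions, did not pass the test. *Clic3* was 6.38, 5.62, 6.22, 5.19 and 3.36 CPM in male controls MC1 to MC5 and 3.34, 4.18, 2.95, 4.82 and 3.81 in male mutants MM1 to MM5. Control MC5 lay among the mutants and the other male controls lay above all of them. Female controls FC1 to FC5 had 6.75, 7.15, 7.48, 8.11 and 9.24 CPM, and in female mutants FM1 to FM5 it was 6.07, 5.46, 5.09, 9.51 and 6.63. FM4 had the highest value of all mice, and the other female mutants lay below the lowest female control. The log2 fold change over all mice was −0.32 (SE 0.14) (edgeR, adjusted p = 0.0946), and with each mouse left out in turn the adjusted p lay between 0.00907, without FM4, where the log2 fold change was −0.43, and 0.196. *Clic5* was 140.2, 143, 140.1, 147 and 121 CPM in male controls MC1 to MC5 and 132, 157, 137, 146 and 165 in male mutants MM1 to MM5. The level in female controls FC1 to FC5 was 152, 154, 134, 146 and 110.3 CPM, and in female mutants FM1 to FM5 it was 97.2, 103, 109.6, 149.6 and 132. Groups of both sexes overlapped. The log2 fold change was 0.089 (SE 0.081) in males and −0.20 (SE 0.14) in females (edgeR, adjusted p = 0.477 and 0.450), and with each female left out in turn the latter lay between −0.32, without FC5, and −0.097, without FC1.

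*Clic6* (chr16:92485736-92541243, + strand) encodes the longest CLIC protein and was the member with the widest range between groups. Its level was 0.954, 0.894, 0.225, 0.325 and 0.129 CPM in male controls MC1 to MC5, from 13, 14, 3, 4 and 2 counts. Male mutants MM1 to MM5 had 2.32, 1.92, 2.23, 2.24 and 1.76 CPM, from 41, 28, 34, 34 and 31 counts. All male mutants lay above all male controls, which is the property for which the gene was chosen, and the ratio of the group means was 4.15. In female controls FC1 to FC5 the level was 6.75, 14.6, 9.61, 5.55 and 6.81 CPM. In female mutants FM1 to FM5 it was 7.93, 8.93, 6.09, 3.43 and 8.63 CPM. The female groups overlapped, with FC2 the highest and FM4 the lowest of them. The log2 fold change in females, which played no part in the choice, was −0.26 (SE 0.33) (edgeR, adjusted p = 0.728), and with each mouse left out in turn it lay between −0.41 and −0.0063, at −0.063 without FM4. In order of the group means, *Clic6* was 8.65 ± 3.62 CPM (SD, n = 5) in female controls, 7.00 ± 2.28 in female mutants, 2.10 ± 0.242 in male mutants and 0.505 ± 0.389 in male controls. The female groups did not differ beyond their spread, and every female exceeded every male. The ratio of the female control mean to the male control mean was 17.1, and that of the female mutant mean to the male mutant mean was 3.34. The fitted sex-by-genotype term of *Clic6* was 2.42 (SE 0.56) on the log2 scale, given as a description because it contains the male contrast. Without FM4 the female mutant mean was 7.90 ± 1.27 CPM (SD, n = 4). As a share of the summed per-kilobase level of the 5 *Clic* genes, *Clic6* went from 0.103% in male controls to 0.354% in male mutants, against 1.82% in female controls and 1.22% in female mutants.

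**Figure D2:**
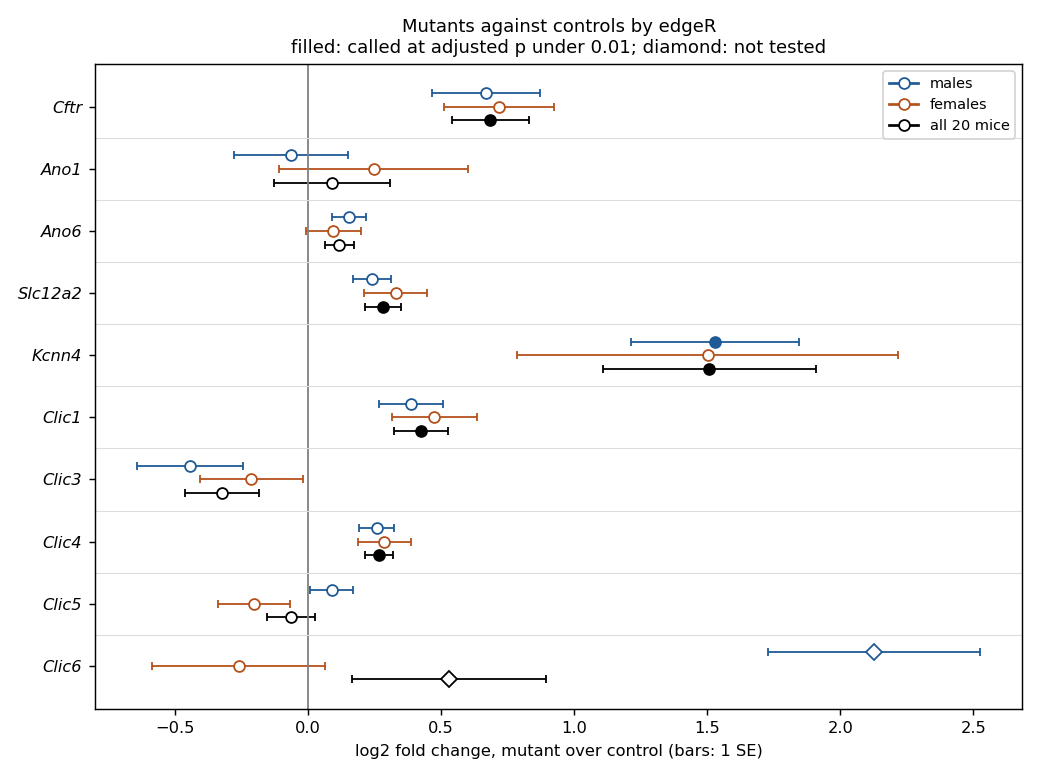
Log2 fold change of each gene, mutant over control (horizontal axis), within males, within females and over all 20 mice. Bars are 1 standard error, filled symbols are called at an adjusted p under 0.01 and diamonds were not tested. *Cftr*, *Slc12a2*, *Kcnn4*, *Clic1* and *Clic4* lie to the right of 0 in all 3 fits, and *Clic6* lies at 2.13 in males and −0.26 in females.

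Within a single sex, fewer members were called. Among male mice, 1 of the 9 members rose, *Kcnn4*, and none fell, where 8.46% of the 14010 genes tested were called, 5.25% higher and 3.2% lower. With 4 to 11 counts in male controls and 19 to 42 in male mutants, *Kcnn4* passed the filter on low counts through the mutants. This limits its call. The median log2 fold change of the 9 was 0.24 in males, against −0.0020 over all genes. The male count was 3 without MM2, with *Cftr* and *Clic1* added, and 0 without any one of the 8 mice named above for *Kcnn4*. Over all genes, 1185 were called with all males, 1863 of 14133 without MM2, and 187 to 884 without one of those 8. Among female mice, none of the 10 members was called, where 0.637% of 14439 genes were, 0.457% higher and 0.18% lower. In females, 2979 genes were at an unadjusted p under 0.05 in edgeR and 944 were called by DESeq2's Wald test, which called none of the members. The median log2 fold change of the same 9 members was 0.29 in females. The difference between the sexes was tested directly by the sex-by-genotype term: none of the 9 members was called, all at an adjusted p of 1 in edgeR, and 0% of 14820 genes were called, with 618 at an unadjusted p under 0.05 and 18 called by DESeq2's Wald test. The largest of the 9 terms by size were 0.32 (SE 0.17) for *Clic5*, which was 0.17 without MC5, and −0.27 (SE 0.44) for *Ano1*, which was −0.50 without FM4 and 0.12 without FM3, and *Clic4* had 0.0023 (SE 0.11), which changes sign with the size factors. A miss at these standard errors does not show that the sexes responded alike.

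Between males and females of the same genotype, *Slc12a2* was higher in males among controls and among mutants, and *Clic4* was called among controls only. The difference between these comparisons is the sex-by-genotype term given above, where neither gene was called. Among controls, 2 of the 9 members were called, both higher in males, where 17.8% of 14123 genes were called, 8.75% higher and 9.02% lower in males. *Slc12a2* was 76.8 ± 7.50 CPM (SD, n = 5) in male controls and 53.1 ± 12.8 in female controls, a log2 difference of 0.68 (SE 0.15) (edgeR, adjusted p = 0.00432). *Clic4* was 287 ± 8.55 CPM in male controls and 243 ± 15.5 in female controls, without overlap, a log2 difference of 0.29 (SE 0.070) (edgeR, adjusted p = 0.00848). The *Slc12a2* call was lost without MC4, MC5 or FC5, at adjusted p from 0.0177 to 0.0188. The *Clic4* call held without MC3 or FC1 and was lost without any one of the other 8 controls, at adjusted p from 0.0112 to 0.0737, and it was lost with no filter on low counts (0.0105) and in a fit of all 20 mice (0.0226). *Cftr* also had no overlap between control males and control females, at 10.6 ± 1.77 and 7.08 ± 1.72 CPM, with an adjusted p of 0.0162 (edgeR) that was 0.00968 with no filter on low counts and 0.00310 by DESeq2's Wald test, and between 0.0153 and 0.0652 with each control left out in turn. *Clic3* was higher in every female control than in every male control, at 7.74 ± 0.972 against 5.36 ± 1.21 CPM, a male-minus-female log2 difference of −0.58 (SE 0.19) (edgeR, adjusted p = 0.0387). Without MC5 or FC5 this was −0.30, at adjusted p of 0.188 and 0.194. By litter (A, B and C), male controls exceeded female controls in mean log2 CPM by 0.44, 0.49 and 1.19 for *Slc12a2* and by 0.13, 0.26 and 0.41 for *Clic4*.

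Among mutants, 1 of the 9 members was called, *Slc12a2*, where 5.42% of 14416 genes were called. It was 93.2 ± 7.35 CPM in male mutants and 64.8 ± 8.31 in female mutants, with all males above all females, a log2 difference of 0.57 (SE 0.11) (edgeR, adjusted p = 0.00613). The call was lost without MM2, MM3, MM4, MM5, FM1, FM2 or FM5, at adjusted p from 0.0128 to 0.0366. Each female mutant had more *Clic3* than each male mutant, at a male-minus-female log2 difference of −0.75 (SE 0.25) (edgeR, adjusted p = 0.0687), which was 0.00749 in a fit of all 20 mice and between 0.0425 and 0.195 with each mutant left out in turn. *Clic4* among mutants had a log2 difference of 0.28 (SE 0.11) (adjusted p = 0.113). The comparisons of males with females use the same mice as those of mutants with controls, so they are set side by side and not counted as separate support.

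Other genes of salt transport that were called mostly fell. Of 104 other genes in 10 lists of chloride, cation and bicarbonate transport and their regulation, 92 were tested over all mice, and 6 rose and 20 fell, beside the 10% of all genes higher and 5.86% lower given above, with a median log2 fold change of −0.077. Among 8 tested CLC channels and subunits, *Bsnd*, which encodes the chloride channel subunit barttin, and *Clcn2*, which encodes the channel CLC-2, fell by 0.57 and 0.33 on the log2 scale. One of that list rose, *Ostm1*, the subunit of the lysosomal exchanger CLC-7, at 0.41. Among 7 other SLC12 cotransporters, *Slc12a3*, the thiazide-sensitive NCC, and *Slc12a1*, the loop diuretic target NKCC2, fell by 1.11 and 0.73. *Slc12a1* was 1731 ± 175 CPM (SD, n = 5) in male controls, 1016 ± 207 in male mutants, 2409 ± 220.5 in female controls and 1530.0 ± 415 in female mutants. The absorptive and the secretory member of the NKCC pair moved in opposite directions between mutants and controls. Of 8 kinases that set cotransporter activity, *Wnk4* and *Wnk1* fell by 0.66 and 0.55.

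Among 10 potassium channels and subunits other than *Kcnn4*, none rose and 4 fell: *Kcnj1*, which encodes the secretory channel ROMK, *Kcnj10*, *Kcne1* and *Kcnq1*, at −0.69, −0.68, −0.47 and −0.34. Among 13 anion exchangers and bicarbonate transporters, *Slc4a1*, *Slc26a7*, *Slc4a3* and *Slc26a4* fell by 1.26, 1.15, 0.73 and 0.59, and none rose. Of 13 CFTR scaffolds and protein kinase A subunits, 1 fell, *Slc9a3r2* (NHERF2), at −0.31. Of 8 sodium pump subunits, *Fxyd5* (dysadherin) rose by 1.12 and *Fxyd2*, the gamma subunit, fell by 0.48. Of 10 LRRC8, bestrophin and TTYH genes, *Ttyh2* rose by 0.23 and *Ttyh1* and *Lrrc8d* fell by 0.85 and 0.30. No gene among 6 tested relatives of *Ano1* and *Ano6* was called. Among 9 purinergic genes, whose receptors raise cell calcium, *Panx1*, an ATP release channel, and the ectonucleotidases *Entpd1* and *Entpd2* rose by 1.41, 0.64 and 0.55, and the receptors *P2ry1* and *P2rx5* fell by 1.00 and 0.44.

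Within males, 92 of the 104 genes were tested, not the same 92 as over all mice, and 3 rose and 12 fell. Within females 93 were tested, none rose and 1 fell, *Slc12a3* at −1.18. The shares over all genes were 5.25% higher and 3.2% lower in males and 0.457% and 0.18% in females. Between control males and control females, 10 of 92 were higher and 16 lower in males, beside the 8.75% and 9.02% of all genes given above. The largest of these differences were −2.21 for *Kcnk1*, 1.27 for *Kcnk5*, −1.09 for *P2ry2* and 1.01 for *Ttyh2*, on the log2 scale.

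**Figure D3:**
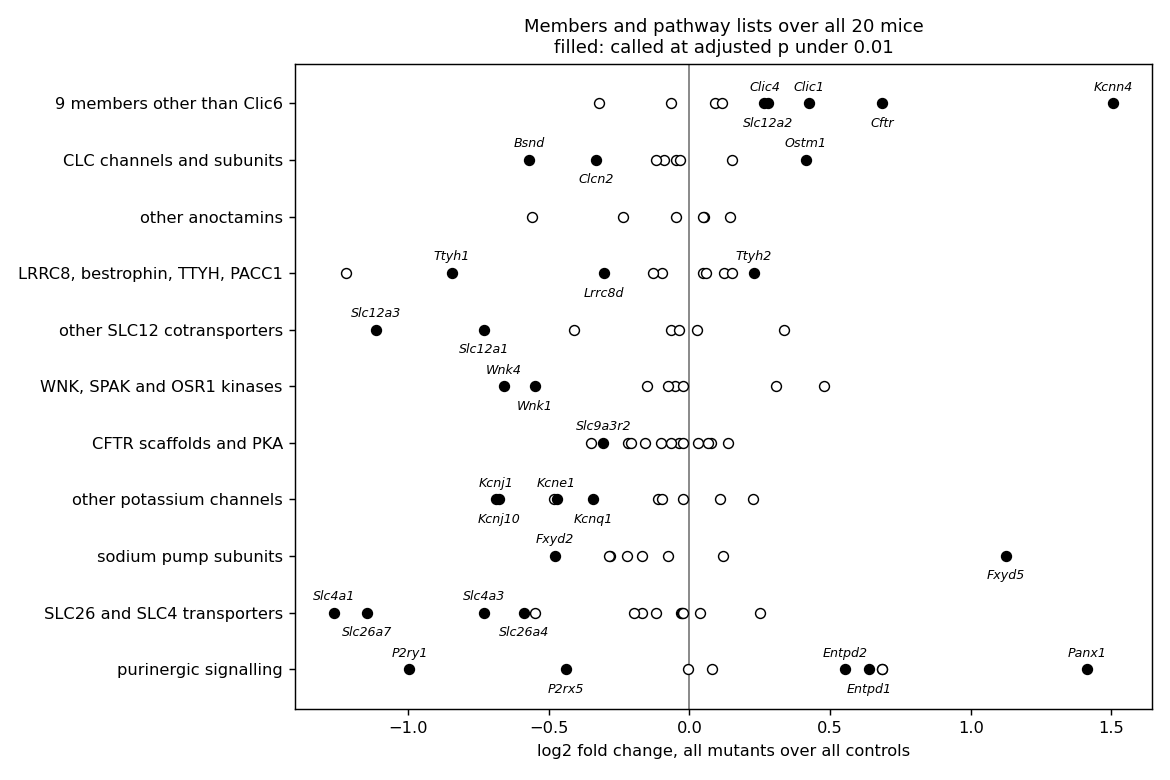
Log2 fold change over all 20 mice (horizontal axis) of the 9 members other than *Clic6* and of each tested gene of the 10 pathway lists, 1 row per list. Filled points are called at an adjusted p under 0.01 and are named. The called members lie to the right of 0, from 0.27 for *Clic4* to 1.51 for *Kcnn4*, whereas 20 of the 26 called pathway genes lie to the left.

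Markers of several cell types moved with genotype in the test over all 20 mice, on which the counts of markers rest. Of 6 markers of the thick ascending limb and distal convoluted tubule, 5 fell and none rose over all mice, and their summed level was 6658 ± 204 CPM (SD, n = 5) in male controls, 4831 ± 302 in male mutants, 9290.5 ± 408 in female controls and 5851 ± 736 in female mutants, with *Umod* the most abundant. This list shares *Slc12a1* and *Slc12a3* with the SLC12 list. Of 6 intercalated cell markers, which share *Slc4a1* and *Slc26a4* with the exchangers, 5 fell, and their sum was 465 ± 26.0 CPM in male controls, 304 ± 55.7 in male mutants, 603 ± 24.6 in female controls and 393 ± 105 in female mutants. Of 5 podocyte markers, which bear on *Clic5*, 4 fell, with sums of 348 ± 57.9, 261 ± 42.9, 550.0 ± 51.0 and 388 ± 41.7 CPM in the same order of groups. Of 6 principal cell markers 2 fell, and no marker of these lists rose. None of 8 proximal tubule markers was called, with sums of 15948 ± 440.4, 14741 ± 2316, 12554 ± 519 and 10466 ± 2993 CPM in that order, and none of 6 endothelial markers was called. Between the control groups, 5 of the 6 thick limb and distal tubule markers, all 5 podocyte markers and 5 of 6 endothelial markers were lower in males, and 3 of 8 proximal tubule markers were higher. Also lower in males were 3 of 6 principal cell, 2 of 6 intercalated cell, 3 of 6 macrophage and 2 of 6 fibroblast markers. Of 4 markers of injured tubule tested there, 1 was higher and 1 lower. Between the mutant groups, 1 principal cell and 1 podocyte marker were lower in males and 1 proximal tubule marker was higher. The part of these cells in the differences of *Slc12a2* and *Clic4* between the sexes was not tested.

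Over all mice, all 6 macrophage markers rose, against 5 within males and 0 within females. Their sum was 106 ± 5.41 CPM in male controls, 224 ± 81.8 in male mutants, 139 ± 15.1 in female controls and 299.8 ± 149.7 in female mutants, with *Csf1r* the most abundant. All 5 markers of injured tubule rose over all mice and within males, and 1 within females, with sums of 14.6 ± 2.64 and 265 ± 229 CPM in male controls and mutants and 20.9 ± 2.43 and 258 ± 198 in female controls and mutants, led by *Havcr1*. Of 6 fibroblast markers, 4 rose over all mice, 3 within males and 0 within females, with *Col3a1* the most abundant and sums of 212 ± 20.9 and 562 ± 237 CPM in male controls and mutants and 285 ± 51.3 and 665 ± 324 in female controls and mutants. *Clic1*, *Clic4* and *Kcnn4* are also expressed outside the tubule, *Kcnn4* in macrophages and T cells among others, and the part of these cells in the rise was not tested. Of the urothelial markers, 1 of 6 rose, *Krt20*, which the injury list also holds. None of 5 lymphocyte, 2 adipose, 1 adrenal or 1 pancreas marker tested was called, and the erythroid gene *Alas2* fell, while 4 globin symbols were listed at 0 in all mice. The adipose markers summed to 412 CPM in FM3, 124 in FC3, 104 in FC5, 51.4 in MC4 and 50.4 in MM4. They summed to at most 16.9 CPM in each other mouse. The part of this tissue in the values of these mice was not tested. The most abundant proximal tubule marker was *Slc34a1*, and those of principal cells, intercalated cells, podocytes and endothelium were *Aqp2*, *Atp6v1b1*, *Podxl* and *Pecam1*.

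Among the 10 mutants, members were related to kidney size by a slope on KBW, the kidney weight as a percentage of body weight, with sex as a covariate. None of the 9 members was called, and 0% of 14416 genes were, with 3212 at an unadjusted p under 0.05 in edgeR and 585 called by DESeq2's Wald test. *Clic1* had a slope of 0.87 (SE 0.19) on the log2 scale per percentage point of KBW (edgeR, adjusted p = 0.0393), and it was the member called by DESeq2's Wald test (adjusted p = 0.00108). The slopes were 2.61 (SE 1.03) for *Kcnn4*, 1.50 (SE 0.55) for *Ano1* and 0.97 (SE 0.38) for *Cftr*, with edgeR's adjusted p of 0.164, 0.142 and 0.162. With each mutant left out in turn, the slope of *Kcnn4* ranged from 1.70, without FM4, to 3.78, without MM2. Those of *Clic3* and *Clic5* were −0.81 (SE 0.34) and −0.52 (SE 0.19) (adjusted p = 0.185 and 0.142), and without the sex term that of *Clic5* was 0.016. *Slc12a2*, at −0.090 (SE 0.21), had the smallest slope by size and changed sign without the sex term, without MM1 or without FM4. FM4, whose library stood apart, had the smallest KBW of the mutants, at 0.836%, and MM1 the largest, at 2.15%. No cell marker was called for its slope. The median slope was 3.68 for markers of injured tubule, 2.35 for macrophage, 2.25 for lymphocyte and 1.43 for fibroblast markers. It was −0.89 for proximal tubule, −0.41 for thick limb and distal tubule, −1.05 for intercalated cell, −0.14 for principal cell and −0.65 for podocyte markers. The part of these cells in the slopes of the members was not tested.

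**Figure D4:**
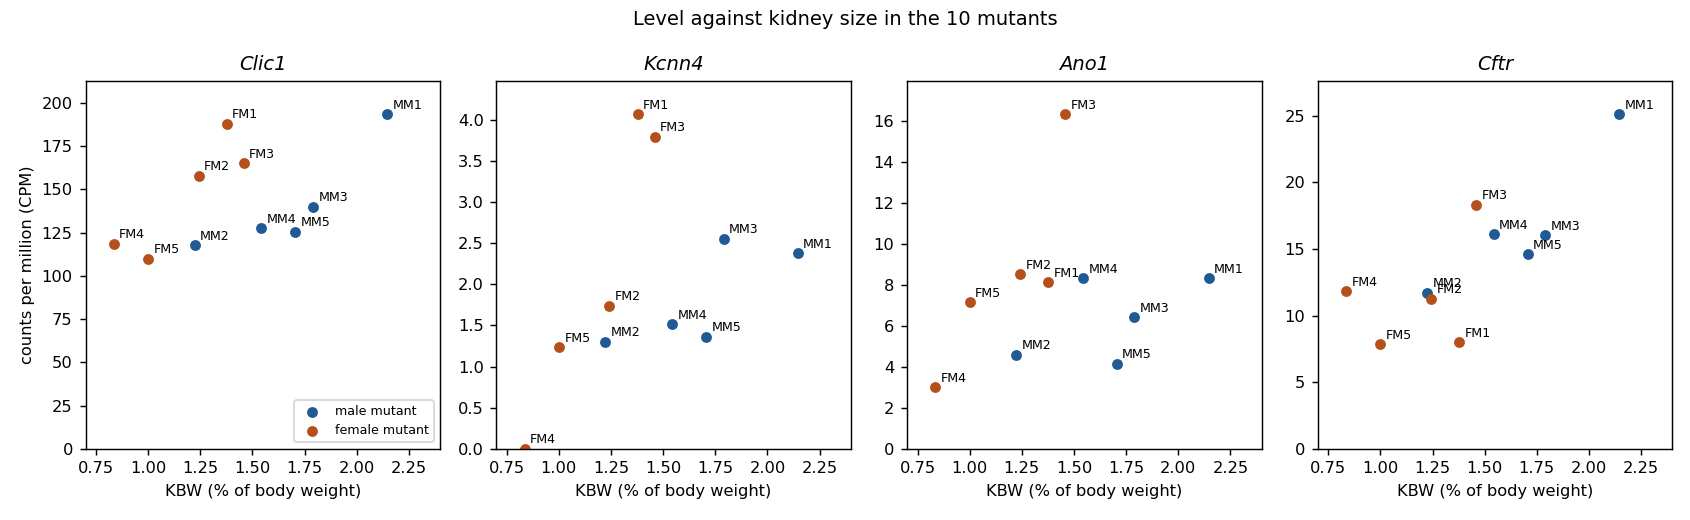
Level of *Clic1*, *Kcnn4*, *Ano1* and *Cftr* in CPM (vertical axis, from 0) against KBW, kidney weight as a percentage of body weight (horizontal axis), in the 5 male and 5 female mutants. Each point is 1 mouse, and FM4 is the lowest point for *Kcnn4* and *Ano1*.

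The genes whose log2 CPM was most like that of a member were ranked by Pearson's r over the 20 mice, among 14819 other genes, as a description. The mice share sex, genotype and litter, so r includes the differences between the 4 groups. For *Clic6* these were *Abcb1b* (r = 0.933), *Gc* (0.921), *Abcc4* (0.896), *Abcb1a* (0.893) and *Gbp3* (0.892), of which *Abcb1a* and *Abcb1b* encode the P-glycoproteins, *Abcc4* an organic anion exporter and *Gc* the vitamin D binding protein. *Abcb1b*, like *Clic6*, was lowest in male controls, at 10.1 ± 1.90 CPM (SD, n = 5), and had 20.5 ± 4.14 in male mutants, 39.7 ± 3.46 in female controls and 40.9 ± 7.61 in female mutants. *Gc* had 33.7 ± 6.72 CPM in male controls, 49.2 ± 12.8 in male mutants, 153 ± 13.1 in female controls and 149 ± 8.18 in female mutants. For *Cftr* the nearest gene was another member, *Clic4* (r = 0.930), followed by *Sash1* (0.924), *Jak1* (0.914), *Sh3d19* (0.909) and *Cep128* (0.908). For *Slc12a2* they were *Trp53inp1* (0.927), *Suco* (0.903), *Igf2bp1* (0.902), *Syt14* (0.893) and *Met* (0.891). For *Ano1* they were *Lrrc49* (0.865), *Pcdhga9* (0.861), *Pdzd4* (0.857), *Col6a1* (0.854) and *Adamtsl1* (0.846). By Spearman's rho in place of r, the 5 nearest genes shared 4 with these for *Cftr*, 2 for *Ano1* and 1 each for *Clic6* and *Slc12a2*.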

How the data were processed

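Per the submitters' processing notes, fastp 0.23.2 and STAR 2.7.10b were used with mm10. The authors deposited counts, not normalized, as whole numbers for each gene symbol. The counting tool, annotation and strand setting are not given in the sources used here. KBW came from the weights in the labels. Each library is a separate mouse.

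Counts were normalized here by TMM in edgeR 4.0.16 (R 4.3.3), filtered by filterByExpr and fitted by quasi-likelihood, with Benjamini-Hochberg adjustment over all genes tested and a threshold of 0.01. Covariates were litter (within a sex or genotype), the 6 groups of sex by litter (all mice) and sex (KBW). Log2 CPM used a prior count of 2. Exon lengths and positions are from GENCODE M21 (GRCm38). All members passed the filter in each comparison, which for *Kcnn4* between mutants and controls rested on the mutants. DESeq2 1.42.0 was an alternative. The fits were first run on simulated data with the same spread for every gene, no litter effect and changes only in genes of higher counts. That run does not cover low counts such as those of *Kcnn4*. Pairs of libraries within a group differed by more than sampling noise.

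The members and lists were chosen with earlier results of these data known. Genes named are the members, *Pkd2*, *Xist* and *Ddx3y*, up to 4 called genes with the largest changes in each pathway list, markers, and the 5 genes nearest to *Clic6*, *Cftr*, *Ano1* and *Slc12a2*. *Clcn4* and *Pacc1* were found as *Clcn4-2* and *Tmem206* through RefSeq synonyms. Some genes of the CLC list are not reported here, and its counts leave them out.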

Additional observations from a re-analysis of the deposited data

Results flagged for a closer look

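*Clic5* was 140.2, 143, 140.1, 147 and 121 CPM in male controls MC1 to MC5, and the value of MC5, 120.9 CPM, was singled out. The rule set the gap to the next mouse against the range of the group, at a cut-off that chance alone passes in about 1 of 20. Of the 40 groups of 5 mice checked, 1 was singled out in this way. In some other groups, such as *Clic1* in male mutants, the gap was also most of the range but lay below the cut-off. MC5 was also the lowest male control for *Clic3*, *Clic6* and *Kcnn4* and the highest for *Cftr*, *Slc12a2* and *Clic4*, and its KBW, 0.896%, was the largest of the 10 controls.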

How the results depend on the processing

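The fits were repeated by DESeq2 (its size factors, then its Wald test), under a stricter and a looser filter, without litter, jointly for the 20 mice, and leaving out single mice, and the KBW slope also without sex and without its 2 extreme mice. Male mutants against male controls called 1 of 9 members, 2 by DESeq2's Wald test and with no litter term, which added *Clic4*, and 0 with at least 10 counts in every mouse, which leaves *Kcnn4* out of the test, and 0 with all 20 mice in 1 fit (*Kcnn4*, adjusted p = 0.0661). With all 20 mice in 1 fit, 1 member differed between control males and control females and 2 between mutants, and DESeq2's Wald test called 1 slope on KBW, that of *Clic1*, and 3 members between controls. Genome-wide, DESeq2's Wald test called 2017 genes in males and 944 in females, where edgeR called 1185 and 92. In females edgeR called 230 with no filter on low counts, 172 with no litter term and 856 with all 20 mice in 1 fit. Between mutants 782 genes were called, 2353 with all 20 mice in 1 fit and 1905 by DESeq2's Wald test. For the sex-by-genotype term, 0 in edgeR, DESeq2's Wald test called 18 genes, and edgeR 2 with no filter and 1 with at least 10 counts in every mouse. For the slope on KBW, 0 in edgeR, DESeq2's Wald test called 585. With 1 mouse left out in turn, the genes called ranged from 187 (without MC4) to 1863 (without MM2) in males, 3 (without FC2) to 866 (without FM4) in females, 1656 to 2994 over all mice, 0 to 3 for the sex-by-genotype term, 1223 (without MC4) to 2659 between controls, 246 (without FM1) to 1330 (without FM4) between mutants and 0 to 76 (without MM5) for KBW. Leaving out each mouse in turn gave 0 to 3 called members in males, 0 in females, 2 to 6 over all mice, 0 for the sex-by-genotype term, 0 to 2 between controls, 0 to 1 between mutants and 0 for KBW. The mice that decide these counts are named above. Some were alone in their group and litter: MC4 in litter B, FC1 and FM1 in litter A, and each mouse of litter C. In fits with litter, leaving out such a mouse also takes the litter mates it was compared with out of the contrast. Those fits therefore do not show the weight of that mouse alone. The causes of the changes were not tested.

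Some values changed sign. The sex-by-genotype term of *Clic4* was −0.023 with DESeq2's size factors, −0.022 by DESeq2's Wald test and −0.012 with at least 10 counts in every mouse, and *Clic1* between controls was −0.055 with all 20 mice in 1 fit. The slope on KBW, −0.090 for *Slc12a2*, −0.52 for *Clic5* and 0.47 for *Clic6* with the sex term, was 0.43, 0.016 and −1.46 without it, and without MM1 and FM4 it was 0.39 for *Slc12a2* and −0.31 for *Clic6*. With 1 mouse left out in turn, the log2 fold change of *Ano1* ranged over −0.26 to 0.087 in males, −0.17 to 0.47 in females and −0.12 to 0.20 over all mice, that of *Clic5* in males over −0.00046 to 0.15, and that of *Kcnn4* between mutants over −0.56 to 0.10. Between controls, *Clic1* ranged over −0.050 to 0.076 and *Clic5* over −0.0054 to 0.11. The sex-by-genotype term ranged over −0.40 to 0.17 for *Cftr*, −0.53 to 0.12 for *Ano1*, −0.016 to 0.16 for *Ano6*, −0.27 to 0.60 for *Kcnn4*, −0.29 to 0.056 for *Clic1* and −0.10 to 0.065 for *Clic4*. The slope on KBW ranged over −0.20 to 0.058 for *Slc12a2* and −0.032 to 0.69 for *Clic6*. None of these values was called. No paired analysis was possible because the labels carry no number that ties a mouse of one group to a mouse of another.

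Counts limit *Kcnn4*, with 0 to 81 a library, and *Clic6*, with 2 to 267. Each mouse gave 1 library, so mouse and library cannot be told apart. Litter C holds 1 mouse a group.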
